A study of Homo sapiens with 44 samples.

Results

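The genes described here are 10 transcription factors of the primitive streak, TBXT, EOMES, MIXL1, GSC, EVX1, TBX6, MSGN1, CDX1, CDX2 and LHX1. They were chosen by name from textbook knowledge of the streak, but with earlier results of these data known, as were the other gene lists used below. Counts and medians of these lists therefore describe chosen sets. The symbols of the 10 were matched to Ensembl identifiers through GENCODE, and all 10 were found among the 60499 rows of the count table. All 10 also passed the filter on low counts, which was applied to all 44 libraries at once and not to each comparison. The libraries come from wells of H1, a human embryonic stem cell line in wide use, and form 12 groups along a protocol that directs the cells towards the heart lineage.

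The pluripotent group (3 wells) was kept on the laminin LN-521, a basement membrane protein. Every other group was grown on LN-521 together with LN-221, another laminin. Day 0 cells (3 wells) were still in Nutristem, a stem cell medium. Days 1 and 3 (3 wells each) were in insulin-free B27 medium with CHIR99021, which inhibits the kinase GSK3 and so switches on Wnt signalling. Day 5 (5 wells) was in the insulin-free medium with IWP2, which blocks the production of Wnt ligands and was first given at day 3. Days 7 and 9 (5 wells each) were in the insulin-free medium alone, and days 11 (5 wells), 14, 20, 30 and 90 (3 wells each) in RPMI medium with the CTS B-27 supplement. Day 11 has 5 labelled wells where the series text counts 3, and all 5 were used. All groups are 1 cell line, and the labels call the wells biological replicates without naming separate cultures, so the p-values given here measure the spread between wells of that line and no variation between donors.

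The primitive streak is the region of the gastrulating embryo where cells of the epiblast leave their epithelium and become mesoderm or endoderm. Wnt, Nodal and BMP signals induce it, and the transcription factors switched on there direct cells into it and sort them by place. TBXT (brachyury) and EOMES are T-box factors that open the mesoderm and endoderm programmes, and MIXL1, GSC and EVX1 are homeobox factors, GSC being known for the anterior streak and EVX1 for the posterior. TBX6 and MSGN1 act in presomitic mesoderm, CDX1 and CDX2 give cells a posterior identity, and LHX1 is a LIM homeobox factor of the anterior streak and of the mesoderm that leaves it.

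Total estimated counts ranged from 24927986 to 30546757 in the wells of days 0, 1 and 3, and RNA integrity from 9.6 to 10. Over all 44 libraries the totals ranged from 6937136 to 33498022, and the 4 shallowest, of days 14, 20 and 30, held at most 14148880. RNA integrity ranged from 7.4 to 10 over all 44. The 3 wells of day 1 and the 3 wells of day 3 were each sequenced in lanes 1, 2 and 3, 1 well of each day per lane, so a difference between wells of 1 of these days and a difference between lanes cannot be told apart. Pluripotency markers summed to between 957 and 1304 TPM in the pluripotent wells and to between 18.0 and 33.5 TPM at day 7, where cardiomyocyte markers summed to between 1630 and 3556 TPM. In bulk RNA, fewer cells of a type and less RNA per cell cannot be told apart.

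Levels are given as CPM (counts relative to the scaled library size) when 1 gene is followed over days, and as TPM, which corrects for transcript length, when genes are compared. Calls required an adjusted p under 0.05 (Benjamini-Hochberg, over the 22955 genes tested) together with a change of at least 1 log2 unit, up or down. A level under 3 counts in a library, which is 0.0896 to 0.432 CPM depending on the library, was taken as not detectable at this depth.

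Promoters of 8 of the 10 genes (9 promoters) were found in a RefSeq table of GRCh38.p14. The 250 bases before each RefSeq start were searched on both strands for 4 short motifs that do not overlap one another here. The first, CTTTGAT, is bound by TCF/LEF factors, which carry Wnt signals into the nucleus. Among the 8 genes only MIXL1 held it, 76 to 70 bases before the start, and 2.26% of 35116 RefSeq promoters hold it. The TATA box, spelled TATAAA, was found on the gene's own strand in GSC, and on the opposite strand in TBXT and EOMES. On either strand it is in 10.7% of all promoters. The T-box motif GGTGTGA was in 0 of the 8 genes and in 2.76% of all promoters. The motif TAATCC of bicoid-type homeobox factors such as GSC was likewise in 0 of the 8 and in 5.62% of all promoters. A match is a description of the letters and not a bound site. The stretches printed next show MIXL1, GSC and TBXT, which were highest at day 1, and TBX6, which was highest at day 3. Each is the part of the 250-base window that lies outside the gene as GENCODE draws it, read 5′ to 3′ on the gene's strand, with the matched letters in capitals. The positions are chr1:226223414-226223617 (plus strand) for MIXL1, chr14:94770231-94770363 (minus strand) for GSC, chr6:166168701-166168905 (minus strand) for TBXT and chr16:30091925-30092174 (minus strand) for TBX6. The opposite-strand TATA letters of TBXT fall 29 to 24 bases before its RefSeq start, outside the stretch shown.
MIXL1: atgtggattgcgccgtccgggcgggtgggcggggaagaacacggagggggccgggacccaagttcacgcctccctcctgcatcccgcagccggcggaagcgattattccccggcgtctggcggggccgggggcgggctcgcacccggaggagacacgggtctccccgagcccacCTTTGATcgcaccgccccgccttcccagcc
GSC: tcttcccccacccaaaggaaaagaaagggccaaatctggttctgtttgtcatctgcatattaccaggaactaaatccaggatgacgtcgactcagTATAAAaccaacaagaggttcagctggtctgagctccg
TBXT: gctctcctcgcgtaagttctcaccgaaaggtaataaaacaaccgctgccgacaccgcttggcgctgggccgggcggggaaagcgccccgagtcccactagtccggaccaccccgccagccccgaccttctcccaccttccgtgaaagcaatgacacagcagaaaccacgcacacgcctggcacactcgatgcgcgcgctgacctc
TBX6: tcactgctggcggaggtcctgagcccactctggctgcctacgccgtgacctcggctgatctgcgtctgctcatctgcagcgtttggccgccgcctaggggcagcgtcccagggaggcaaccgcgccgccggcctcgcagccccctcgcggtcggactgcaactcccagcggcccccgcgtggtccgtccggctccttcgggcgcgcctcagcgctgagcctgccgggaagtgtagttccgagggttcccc

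Before CHIR99021 was added, the 10 genes were low. Day 0 cells differ from the pluripotent group, as labelled, in the added LN-221. By edgeR 0 of the 10 genes were called, beside 2.91% of all genes tested (2.73% higher and 0.183% lower), while 2 had an unadjusted p under 0.05. GSC, EVX1, CDX1 and CDX2 had at most 9 counts over the wells of either group, and MSGN1 had 0. For these genes the counts left little or no room for a call, so the comparison with all genes says little about them. DESeq2 called 1, TBX6, and limma on TPM called 0. TBX6 was the nearest to a call, with 0.844, 0.796 and 0.802 CPM in the pluripotent wells and 2.21, 2.33 and 2.00 CPM at day 0. The ranges do not overlap, and the log2 fold change of 1.42 (SE 0.47) had an adjusted p of 0.064. When only the libraries of these groups were fitted, TBX6 (adjusted p 0.0004) and MIXL1 (adjusted p 0.0068) were called, with 3 of the 10 genes left to test. That fit called more genes in general, 1592 of the 17557 it tested. Per transcript length TBX6 was also the highest of the 10 at day 0, at 0.707 ± 0.051 TPM (SD, n = 3), and MSGN1 had no count in any well of either group. Of 22 genes of the signals and feedback loops around the streak, 6 were called higher at day 0, led by SP5 (log2 fold change 4.52) and LEF1 (3.34), a Wnt target and a Wnt effector. The median log2 fold change of the 22 was 0.72, beside 0 over all genes.

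After 1 day of CHIR99021, 8 of the 10 genes were called higher than at day 0, all but TBX6 and LHX1. Of all genes tested 13.5% were called in this comparison, 3.86% higher and 9.66% lower. The median log2 fold change of the 10 genes was 8.93, beside -0.0261 over all genes. Leaving out any 1 library left 8 called.

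The T-box genes TBXT and EOMES rose together. TBXT (ENSG00000164458, chromosome 6, 166157656 to 166168700, minus strand, positions here and below in GRCh38 from GENCODE 29) had 0.470, 0.200 and 0.311 CPM in the wells of day 0 and 292, 369 and 272 CPM in those of day 1. EOMES (ENSG00000163508, chromosome 3, 27715949 to 27722711, minus strand) went from 0.638, 0.166 and 0.345 CPM to 291, 372 and 268 CPM. Every day 1 well was far above every day 0 well, and well 2 was the highest for both genes. The log2 fold change was 9.87 (SE 0.72, adjusted p 2.5e-12) for TBXT and 9.64 (SE 0.75, adjusted p 4.1e-12) for EOMES. Without day 0 well 1 that of EOMES was 10.27.

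The homeobox genes MIXL1, GSC and EVX1 rose as well. MIXL1 (ENSG00000185155, chromosome 1, 226223618 to 226227054, plus strand), which is needed for endoderm to form from the streak, had 1.17, 0.599 and 0.760 CPM at day 0 and 272, 466 and 200 CPM at day 1. The log2 fold change was 8.52 (SE 0.68, adjusted p 7.2e-12), with no overlap. GSC (ENSG00000133937, chromosome 14, 94768216 to 94770230, minus strand), the organizer repressor goosecoid, had 6, 3 and 0 counts at day 0 and 15.2, 29.4 and 13.0 CPM at day 1. Its log2 fold change was 7.50 (SE 0.98, adjusted p 3.6e-07), and 8.48 without day 0 well 1. Both genes were highest in day 1 well 2. EVX1 (ENSG00000106038, chromosome 7, 27242700 to 27250493, plus strand), the even-skipped homeobox gene, had 3 counts over the 3 wells of day 0 and 79.1, 92.3 and 81.2 CPM at day 1. That is a ratio of 2486 with a counting interval of 850.2 to 12056 (95%), and the fitted log2 fold change of 11.08 became 11.96 without day 0 well 3. EVX1 shares its locus with the antisense gene EVX1-AS, which had 2.11 ± 1.07 CPM at day 1 (SD, n = 3). Whether counting used the strand is not given in the sources used here, so reads could have been split between both.

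The posterior genes CDX1 and CDX2 and the presomitic gene MSGN1 were also higher at day 1. CDX1 (ENSG00000113722, chromosome 5, 150166795 to 150184558, plus strand) had 4, 2 and 2 counts at day 0 and 121, 65.1 and 123 CPM at day 1, where well 2 was the lowest. The log2 fold change was 10.08 (SE 0.63, adjusted p 4.3e-14). CDX2 (ENSG00000165556, chromosome 13, 27962137 to 27971139, minus strand) had 2, 1 and 5 counts at day 0 and 66.2, 51.3 and 66.2 CPM at day 1, a log2 fold change of 9.33 (SE 1.18, adjusted p 1.9e-07), and of 10.16 without day 0 well 3. MSGN1 (ENSG00000151379, chromosome 2, 17816496 to 17817101, plus strand) had 0 counts in all 3 wells of day 0 and 19, 43 and 24 counts at day 1, which was at least 27.3-fold higher when the 3 day 0 wells together are set to the floor of 3 counts. MSGN1 was called by edgeR (adjusted p 0.00019) and missed the threshold by DESeq2 (adjusted p 0.075). CDX2 is also a gene of trophoblast and of intestine. Trophoblast and amnion markers summed to between 11.8 and 14.2 TPM at day 0 and to between 3.79 and 7.46 TPM at day 1, and each of the 10 had a TPM above 0 in some day 1 well. The trophoblast genes CGA and ELF5 had 8 and 2 counts over the 3 wells of day 1, and the intestinal gene MUC2 had 1. Hindgut and intestine markers summed to between 1.23 and 1.81 TPM at day 0, 2.46 and 3.28 TPM at day 1 and 18.2 and 25.4 TPM at day 3, when CDX2 had fallen. The part of these cell types in the CDX2 level was not tested.

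TBX6 and LHX1 did not pass the test at day 1. TBX6 (ENSG00000149922, chromosome 16, 30085793 to 30091887, minus strand) had 1.68, 2.41 and 1.28 CPM, overlapping its day 0 wells (log2 fold change -0.29, SE 0.45, adjusted p 0.73). LHX1 (ENSG00000273706, chromosome 17, 36936785 to 36944612, plus strand) had 0.738, 0.732 and 1.04 CPM at day 0 and 1.08, 1.61 and 1.06 CPM at day 1. The ranges of LHX1 lie just apart, but its log2 fold change of 0.58 (SE 0.61) had an adjusted p of 0.57.

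**Figure D1:**
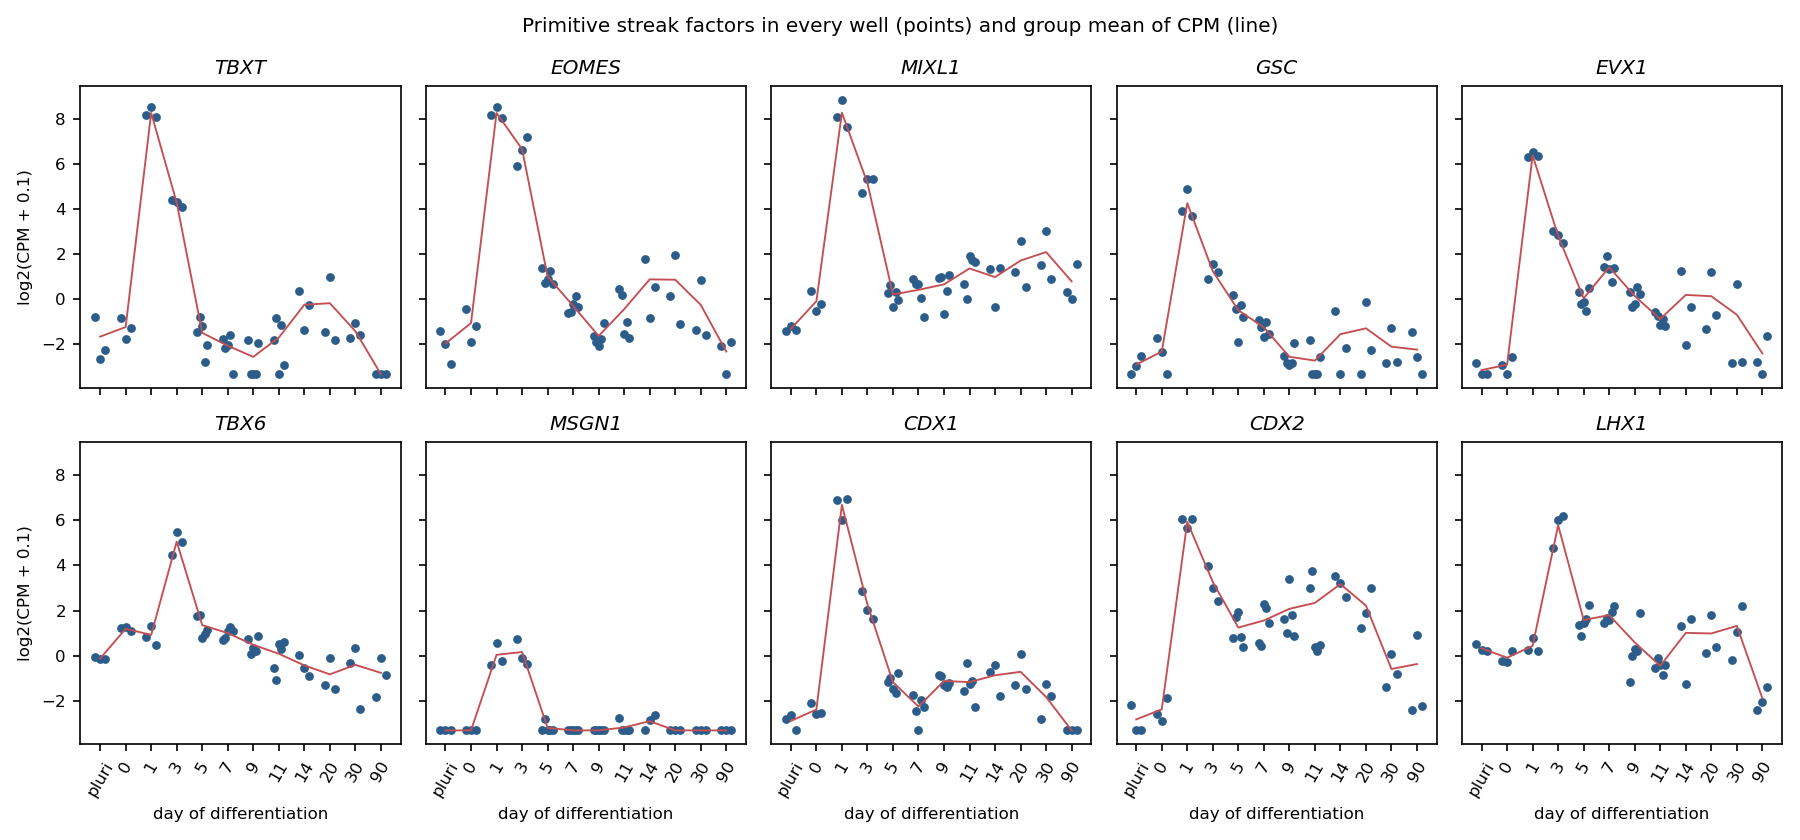
Level of each gene in every well (points, log2 of CPM + 0.1) in pluripotent cells and from day 0 to day 90, with the line through the group means of CPM. Of the 10 genes, 8 jump at day 1, TBX6 and LHX1 jump at day 3, and CDX2 spreads over wells from day 7 to day 20.

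Compared per transcript length, the order at day 1 was MIXL1 (137 ± 66.0 TPM), TBXT (106 ± 19.5), EOMES (79.0 ± 14.97), CDX1 (53.2 ± 17.1), CDX2 (20.9 ± 4.64), EVX1 (20.0 ± 2.17) and GSC (11.3 ± 5.32), with SD over 3 wells. MSGN1 (1.37 ± 0.602), TBX6 (0.660 ± 0.210) and LHX1 (0.357 ± 0.135) closed it. The wells of MIXL1, TBXT and EOMES overlap from neighbour to neighbour, as do those of CDX2 and EVX1 and those of TBX6 and LHX1. The other steps of the order have no overlap.

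The ligands and feedback inhibitors around these factors moved on the same day. Of the 22 signal and feedback genes, 16 were called higher at day 1 than at day 0 and 1 lower, with a median log2 fold change of 3.61. DKK4, a secreted Wnt inhibitor, had 1 count over the day 0 wells and 47.0 ± 21.2 CPM at day 1 (SD, n = 3). SP5, a transcription factor that Wnt switches on, rose from 1.205 ± 0.213 to 263 ± 13.1 CPM (log2 fold change 7.76, SE 0.58, adjusted p 1.9e-12). The one that fell was LEFTY2, an inhibitor of Nodal (log2 fold change -1.68, SE 0.49, adjusted p 0.011). Of 15 genes of nascent mesoderm and of the epithelial to mesenchymal transition, 7 were called higher, with a median of 1.27, led by MSX1 (4.31) and APLNR (3.08). Of 8 definitive endoderm markers, 3 were called higher, led by FOXA2 (6.04) and GATA6 (3.68).

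At day 3, still under CHIR99021, the set had turned over. Compared with day 1, 7 of the 10 genes were called lower, 2 higher (TBX6 and LHX1), and MSGN1 was not called. Of all genes 17.8% were called in this comparison, 11.0% higher and 6.80% lower. The median log2 fold change of the 10 was -2.88, beside 0.0687 over all genes. All 10 were still called higher at day 3 than at day 0 by edgeR, while DESeq2 did not call MSGN1 (adjusted p 0.066). In this comparison 16.6% of all genes were called, 7.81% higher and 8.76% lower. Here EOMES had the highest fitted log2 fold change (8.04) and TBX6 the lowest (3.93). Leaving out day 0 well 1 moved EOMES to 8.64 and GSC from 4.43 to 5.39, and leaving out day 0 well 3 moved CDX2 from 6.65 to 7.47 and EVX1 from 7.48 to 8.35.

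TBX6 and LHX1 peaked at day 3. TBX6 reached 21.7, 45.1 and 32.9 CPM, a log2 fold change against day 1 of 4.21 (SE 0.49, adjusted p 1.9e-08). LHX1 reached 27.1, 64.4 and 73.7 CPM, a log2 fold change of 5.46 (SE 0.66, adjusted p 4.2e-08). Every day 3 well was above every day 1 well for both genes, and well 1 was the lowest for both. The antisense gene AC243773.1 inside the LHX1 locus had 2 counts over the 3 day 3 wells. LHX1 is also a gene of intermediate mesoderm and kidney. Markers of that lineage summed to between 0.180 and 0.540 TPM at day 1 and between 0.700 and 1.28 TPM at day 3, and their part in the LHX1 level was not tested.

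MSGN1 held its low level, with 39, 22 and 18 counts (1.55, 0.819 and 0.679 CPM), which overlap the 19, 43 and 24 counts of day 1. Against day 0 it was at least 29.1-fold higher. This gene was therefore detected at both CHIR99021 time points, with 18 to 43 counts per well against a floor of 3, while its day 0 level was not detectable.

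The genes that had risen first fell at unlike rates. CDX1 kept 4.57% of its day 1 mean, TBXT 6.26% and EVX1 8.25%. MIXL1 kept 11.4%, GSC 11.9% and CDX2 15.6%. EOMES kept 32.8%. TBXT stood at 21.1, 20.1 and 17.1 CPM at day 3 (log2 fold change -3.998, SE 0.53, adjusted p 3.1e-07), and CDX1 at 7.19, 3.95 and 3.02 CPM (-4.45, SE 0.45, adjusted p 1.7e-09). EOMES was still at 59.7, 97.7 and 148 CPM, below all day 1 wells, with a log2 fold change of -1.61 (SE 0.50, adjusted p 0.013). That call of EOMES was lost without day 1 well 2 (adjusted p 0.051) and without day 3 well 1 (adjusted p 0.080). The call of CDX2, at 15.5, 7.86 and 5.28 CPM, was lost without day 3 well 3 (adjusted p 0.061). Differences between the rates of these genes were not tested.

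Per transcript length, EOMES led at day 3 (29.7 ± 15.5 TPM, SD, n = 3), followed by MIXL1 (18.7 ± 5.75), LHX1 (14.9 ± 7.22) and TBX6 (13.8 ± 4.85), whose wells overlap from neighbour to neighbour. TBXT (7.18 ± 0.362) came next, with every well below those of TBX6 but not below the lowest well of LHX1 (6.82 TPM), and every well above those of CDX2 (3.34 ± 1.75). After CDX2 came CDX1 (2.68 ± 1.13), EVX1 (1.71 ± 0.212), MSGN1 (1.61 ± 0.654) and GSC (1.44 ± 0.361), which overlap from neighbour to neighbour. GSC had thus moved from above MSGN1, with no overlap at day 1, to a level that overlaps it.

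The other gene groups of gastrulation changed beside this turnover. Of the 15 mesoderm and transition genes, 12 were called higher at day 3 than at day 1 (median log2 fold change 4.49). HAND1, a factor of lateral mesoderm, rose by 7.79 (SE 0.67, adjusted p 2.0e-11) and PDGFRA, a mesoderm receptor, by 7.20 (SE 0.58, adjusted p 3.9e-12). Of the 8 endoderm markers 7 were called higher (median 3.92), led by SOX17 (7.86, SE 0.64, adjusted p 4.1e-12). Of the 22 signal and feedback genes 11 were called lower and 3 higher, with a median of -1.30. NODAL fell from 308 ± 15.2 to 5.40 ± 4.72 CPM (SD, n = 3 each, log2 fold change -5.83, SE 0.50, adjusted p 1.7e-11), and DKK4 from 47.0 ± 21.2 to 0.643 ± 0.295 CPM. The ligand genes BMP4 (4.06, SE 0.36, adjusted p 2.6e-11) and WNT8A (3.96, SE 0.51, adjusted p 1.9e-07) rose.

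**Figure D2:**
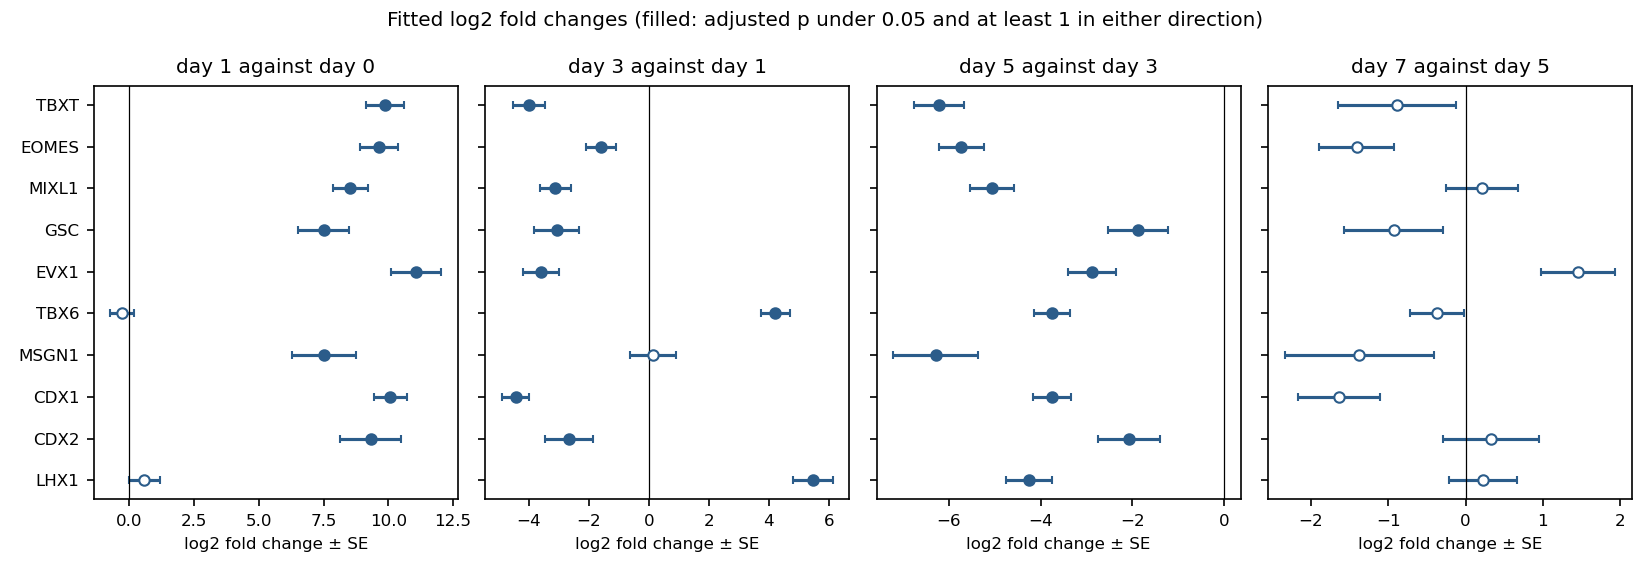
Fitted log2 fold change (point) and its standard error (bar) of each gene in the 4 successive comparisons from day 0 to day 7. Filled points passed the call rule: 8 genes lie above 0 for day 1 against day 0, TBX6 and LHX1 alone lie above 0 as filled points for day 3 against day 1, 10 lie below 0 for day 5 against day 3, and day 7 against day 5 has no filled point. The points of MSGN1, except for day 3 against day 1, and that of EVX1 for day 1 against day 0 rest on 0 to 3 counts in at least 1 of the groups. They depend on the fit.

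By day 5, under IWP2, all 10 genes were called lower than at day 3. The wells of none of the 10 overlapped between these days, but the share of all genes without overlap was not computed. Of all genes 10.1% were called, 5.75% higher and 4.34% lower, and the median log2 fold change of the 10 was -4.003, beside -0.0235 over all genes. TBXT fell to 0.271, 0.479, 0.343, 0.0435 and 0.149 CPM (log2 fold change -6.21, SE 0.54, adjusted p 1.3e-10). EOMES fell to 2.52, 1.56, 1.76, 2.30 and 1.49 CPM (-5.72, SE 0.49, adjusted p 5.4e-11), and MIXL1 to between 0.685 and 1.44 CPM (-5.06, SE 0.48, adjusted p 4.6e-10). The late pair fell with them, TBX6 to between 1.63 and 3.43 CPM (-3.76, SE 0.39, adjusted p 4.3e-09) and LHX1 to between 1.72 and 4.69 CPM (-4.25, SE 0.51, adjusted p 6.5e-08). MSGN1 had 79 counts over the wells of day 3 and 1 count over the 5 of day 5, a ratio of 123 with a counting interval of 21.4 to 4914. Without day 5 well 2, which held that count, the fitted log2 fold change of MSGN1 went from -6.28 to -7.65, and by DESeq2 it was not called (adjusted p 0.079).

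The smallest falls were those of GSC and CDX2. GSC stood at 1.05, 0.639, 0.171, 0.739 and 0.484 CPM at day 5, against 1.75, 2.87 and 2.23 CPM at day 3 (log2 fold change -1.88, SE 0.65, adjusted p 0.040). CDX2 stood at 1.63, 3.15, 3.72, 1.65 and 1.19 CPM (-2.07, SE 0.68, adjusted p 0.030). Both calls rest on few wells. That of GSC was lost without any 1 of the 3 day 3 wells or of day 5 wells 2 to 5 (adjusted p up to 0.15), and that of CDX2 without day 3 well 1 or 2 or day 5 well 1, 4 or 5 (up to 0.23). With the sequencing lane in the fit, CDX2 had an adjusted p of 0.067.

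Some of the genes had not come back to their day 0 level at day 5. Against day 0, 6 of the 10 were called higher (EVX1, CDX1, GSC, EOMES, CDX2 and LHX1), beside 12.5% of all genes called higher and 12.2% called lower (24.7% in all). EVX1 had 14 to 36 counts in each day 5 well and 3 counts over the day 0 wells, a ratio of 27.9 (counting interval 9.32 to 137). EOMES was at 1.92 ± 0.461 CPM (SD, n = 5) against 0.383 ± 0.238 (SD, n = 3), a log2 fold change of 2.31 (SE 0.62, adjusted p 0.0030), and 2.93 without day 0 well 1. CDX2 was at 2.27 ± 1.10 against 0.0910 ± 0.0727 CPM (4.57, SE 1.07, adjusted p 0.00073), and 5.40 without day 0 well 3, and the fitted value of EVX1 moved from 4.60 to 5.48 without that well. The wells of GSC overlap between these days, and its log2 fold change of 2.55 became 3.52 without day 0 well 1. The calls of GSC and CDX1 were lost without day 0 well 2 or 3 (adjusted p between 0.058 and 0.099). These levels lie under 1 TPM on average, and limma on log2(TPM + 1) called 0 of the 10. TBXT was not called against day 0 (log2 fold change -0.34, SE 0.73, adjusted p 0.75). Neither were MIXL1 (0.33, SE 0.55, adjusted p 0.66) and TBX6 (0.17, SE 0.40, adjusted p 0.77). The wells of each overlapped between these days, though not every day 5 well lay within the day 0 range.

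From day 5 to day 7 edgeR called 0 of the 10, beside 3.65% of all genes (2.74% higher and 0.906% lower). MSGN1, with 1 count over the wells of day 5 and 0 over those of day 7, had too few counts for a call. An unadjusted p under 0.05 was found for 3 genes. EVX1 went from 0.936 ± 0.303 to between 1.61 and 3.73 CPM (log2 fold change 1.46, SE 0.48, adjusted p 0.068), CDX1 had a log2 fold change of -1.64 (SE 0.53, adjusted p 0.060) and EOMES of -1.41 (SE 0.48, adjusted p 0.084). The wells of these 3 genes do not overlap between the days, and here too the share of all genes without overlap was not computed. DESeq2 called CDX1, limma on TPM called 0, and without day 7 well 1 CDX1 was called (adjusted p 0.045).

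The signal genes fell with the factors from day 3 to day 5. Of the 22, 15 were called lower (median log2 fold change -2.35), led by CER1 (-6.71, SE 0.79, adjusted p 4.7e-08), a secreted inhibitor of Nodal, BMP and Wnt, and WNT8A (-6.50, SE 0.47, adjusted p 2.7e-12). Of the 15 mesoderm and transition genes 4 fell, led by MESP2 (-5.29, SE 0.56, adjusted p 6.0e-09) and MESP1 (-4.19, SE 0.51, adjusted p 1.1e-07), both factors of the earliest mesoderm. The cardiomyocyte markers rose, 6 of 6 (median 3.78), led by TBX5 (5.44, SE 0.55, adjusted p 1.9e-09) and TNNT2 (4.06, SE 0.33, adjusted p 1.8e-11).

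Wells of 1 day were not alike in these genes, and the genes did not vary in the same direction. At day 1, well 2 held more MIXL1 (466 CPM) than the mean of the other wells (236 CPM, log2 ratio 0.98) and more GSC (29.4 against 14.1 CPM, 1.06). MSGN1 (0.90), TBX6 (0.67) and LHX1 (0.55) were also higher there. The same well held less CDX1 (65.1 against 122 CPM, -0.91). For comparison, the middle 90% of 14577 genes with a mean of at least 1 CPM at day 1 had log2 ratios of -0.58 to 0.51 in that well. MSGN1, at a mean of 0.923 CPM, lies under that cut, and TBX6 (1.79 CPM) and LHX1 (1.25 CPM) lie just above it. Ratios from so few counts carry more counting error than those of most genes compared. Among the signal genes CER1 (1.28), LEFTY1 (1.14) and FGF4 (1.33) were higher in well 2, and BMP4 (-1.99) and WNT5B (-0.75) were lower. Of the endoderm markers GATA6 (1.56) and HHEX (1.25) were higher there and CXCR4 (-1.92) lower. These ratios are descriptions of single wells, and the genes outside the 10 were picked after their values were seen.

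At day 3 the wells differed as well. Well 1 held less LHX1 (27.1 against 69.1 CPM, log2 ratio -1.35), EOMES (59.7 against 123 CPM, -1.04), TBX6 (21.7 against 39.0 CPM, -0.84) and MIXL1 (26.0 against 40.6 CPM, -0.64). It held more CDX2 (15.5 against 6.57 CPM, 1.23), CDX1 (7.19 against 3.48 CPM, 1.03) and MSGN1 (1.55 against 0.749 CPM, 0.96). Among 14891 genes with a mean of at least 1 CPM at day 3 (MSGN1 had 1.02 CPM), the middle 90% had ratios of -0.55 to 0.48 in that well. Other genes outside that range were NODAL (1.98) and WNT5B (1.08), which were higher in well 1, and LEFTY2 (-2.27) and MESP2 (-1.38), which were lower. Genes that peaked at day 1 were thus found on both sides, EOMES and MIXL1 low and CDX1 and CDX2 high in the same well. Its total of 24927986 counts was the lowest of the 3, its RNA integrity was 9.7, and it was sequenced in lane 1. Well 3 differed the other way, beyond its own middle 90% of genes (-0.49 to 0.43). It held more EOMES (0.91) and LHX1 (0.69) and less CDX2 (-1.13), CDX1 (-0.86) and MSGN1 (-0.72) than the other wells. The part of lane, depth or culture in these differences was not tested. Of the counts of called genes, that for day 1 against day 0 stayed at 8 without day 1 well 2, and that for day 3 against day 1 went from 9 to 8 without day 3 well 1.

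**Figure D3:**
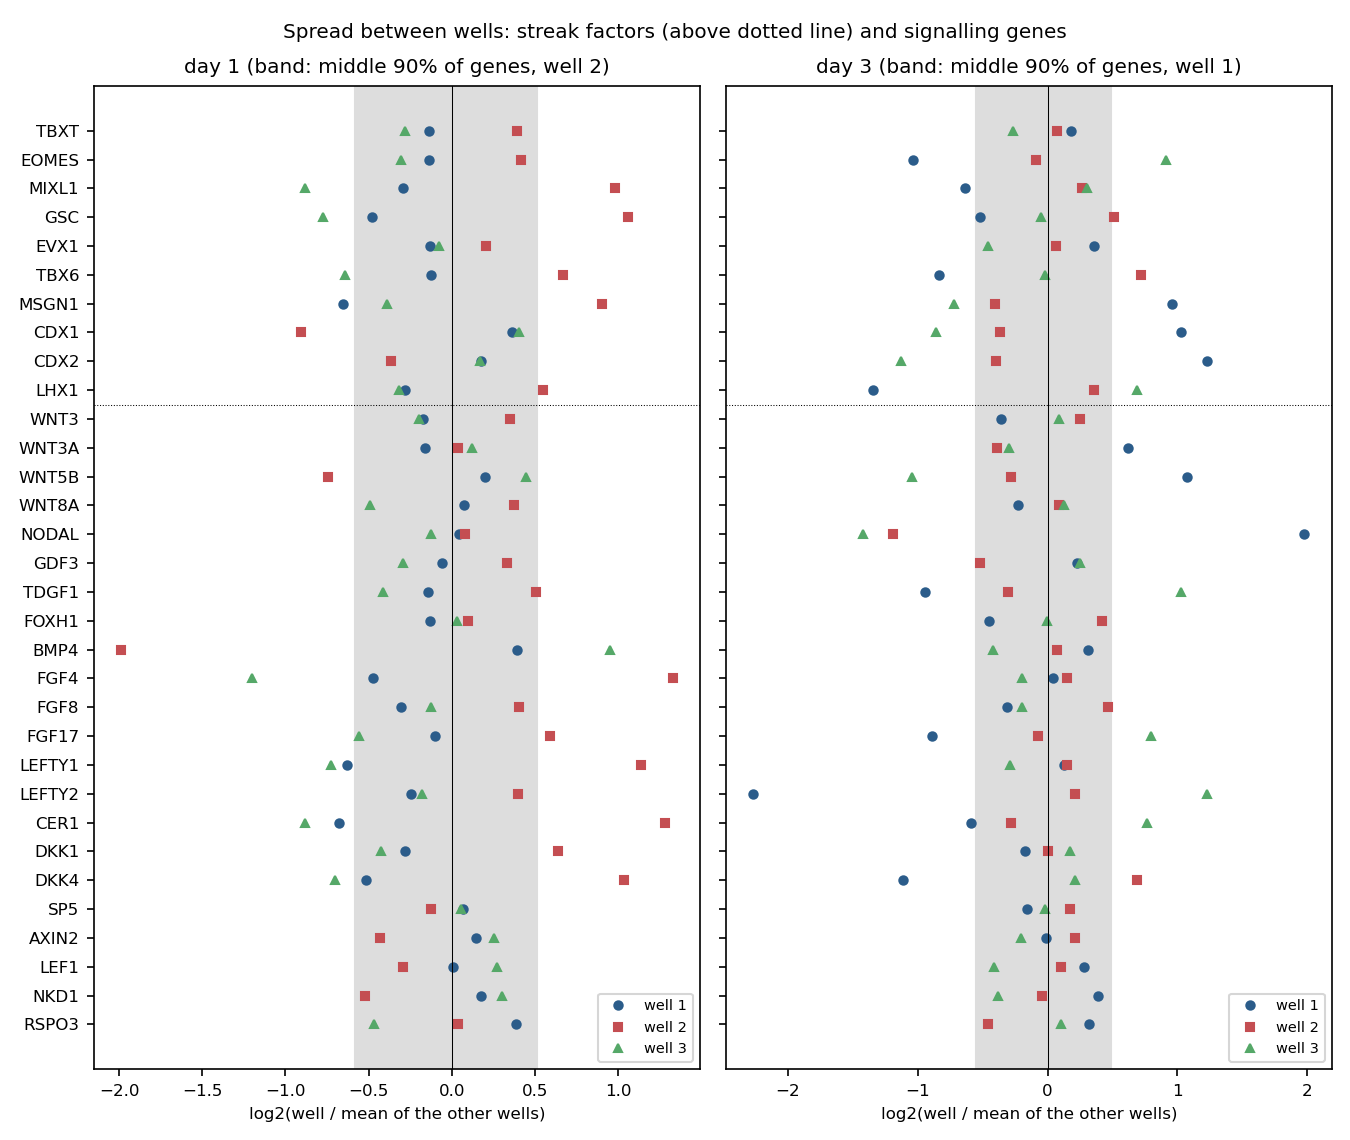
Log2 ratio of each well to the mean of the other wells of its day, for the 10 factors (above the dotted line) and the 22 signal genes, at day 1 (left) and day 3 (right). The grey band is the middle 90% of genes with a mean of at least 1 CPM on that day, for well 2 at day 1 and well 1 at day 3. For day 1 well 2, MIXL1, GSC, MSGN1, TBX6 and LHX1 lie to the right of the band and CDX1 to the left. For day 3 well 1, LHX1, EOMES, TBX6 and MIXL1 lie to the left and CDX1, CDX2 and MSGN1 to the right.

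Genes with the most similar course over the 12 group means were searched among 12085 protein-coding genes with at least 10 CPM in some group, by Pearson's r of log2(CPM + 1). The points share libraries and scaling, so r is a description. The members themselves filled much of the result. CDX1 and GSC were each other's nearest gene (r = 0.990), and CDX1 and GSC were also among the nearest of TBXT and EVX1. EOGT, a glycosyltransferase gene, was nearest to TBXT (0.990) and MIXL1 (0.980), with 12.7 CPM at day 0, 119 at day 1 and 40.7 at day 3. FGF17, a secreted growth factor gene, was nearest to EOMES (0.988) and MSGN1 (0.981), with 36.6 CPM at day 1 and 17.8 at day 3. FZD10, a Wnt receptor gene, was second for GSC (0.982), EVX1 (0.971) and CDX1 (0.989).

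For the late pair the list was a different one. TBX6 was nearest to SAMD3 (0.976), HHIPL2 (0.967) and MESP2 (0.950). LHX1 was nearest to PCDH19 (0.954), MESP2 (0.939) and HHIPL2 (0.938). Each of these peaked at day 3, SAMD3 at 61.3 CPM and MESP2 at 32.6 CPM. CDX2 was nearest to LRRC3 (0.973), with MBNL3 (0.913) also among its nearest genes, and both, like CDX2, were highest at day 1. The third genes were GSC for TBXT, EOGT for EOMES, WASHC2C (0.971) for MIXL1, TBXT for GSC (0.980) and CDX1 (0.986), and CER1 (0.947) for MSGN1. TBXT was also second for EOMES (0.969) and MIXL1 (0.974), and EOMES second for MSGN1 (0.972).

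MSGN1 had 0 counts in every well of days 7, 9, 20, 30 and 90, and TBXT and CDX1 had 0 counts in all 3 wells of day 90. GSC did not exceed 0.821 CPM in any well after day 7, and TBX6 lay between 0.0926 and 1.72 CPM. EVX1 was at 1.01 ± 0.281 CPM at day 9 (SD, n = 5) and at 0.0896 ± 0.119 CPM at day 90 (SD, n = 3). LHX1 lay between 0.0896 CPM (day 90) and 4.45 CPM (day 30), and EOMES reached 3.83 CPM in 1 well of day 20. MIXL1 had at least 13 counts in every well of days 9 to 90 and up to 8.04 CPM.

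CDX2 differed between wells of a day from day 7 to day 20. It stood at 2.84 ± 1.62 CPM at day 7 (SD, n = 5) and at 8.91 ± 2.79 CPM at day 14 (SD, n = 3). At day 11 wells 1 and 2 held 8.01 and 13.2 CPM and wells 5, 6 and 7 held 1.198, 1.07 and 1.28 CPM. HNF4A, an endoderm factor of liver and gut picked here after its values were seen, divided the same wells, with 69.5 and 91.5 CPM in wells 1 and 2 and 7.91, 8.10 and 5.94 CPM in wells 5, 6 and 7. At day 9 well 2 was the highest in both genes (10.5 CPM of CDX2 and 93.5 CPM of HNF4A). At day 20 it was well 3 (7.85 and 46.2 CPM). Day 14 did not show this, since its well 6 had the most HNF4A (51.7 CPM) and the least CDX2 (5.99 CPM). The 6 hindgut and intestine markers summed to between 2.86 and 19.05 TPM in the wells of day 11. Of these, VIL1 divided the wells of day 11 in the same way, with 36.7 and 51.8 CPM in wells 1 and 2 and 15.9, 15.9 and 10.2 CPM in wells 5, 6 and 7. MUC2 and CDH17 stood at no more than 0.138 and 0.477 CPM on that day, and CDH17 reached 2.31 to 7.64 CPM in the wells of days 14 and 20. Day 11 wells 1 and 2 also had lower RNA integrity (8.6 and 8) than wells 5, 6 and 7 (9.5, 9.2 and 9.4). Their totals were lower too, at 18014203 and 19060126 counts against 27344777, 23631168 and 31323325. Each of the 5 wells was sequenced in a different lane. The part of other cell types, RNA integrity, depth or lane in these CDX2 levels was not tested.

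**Figure D4:**
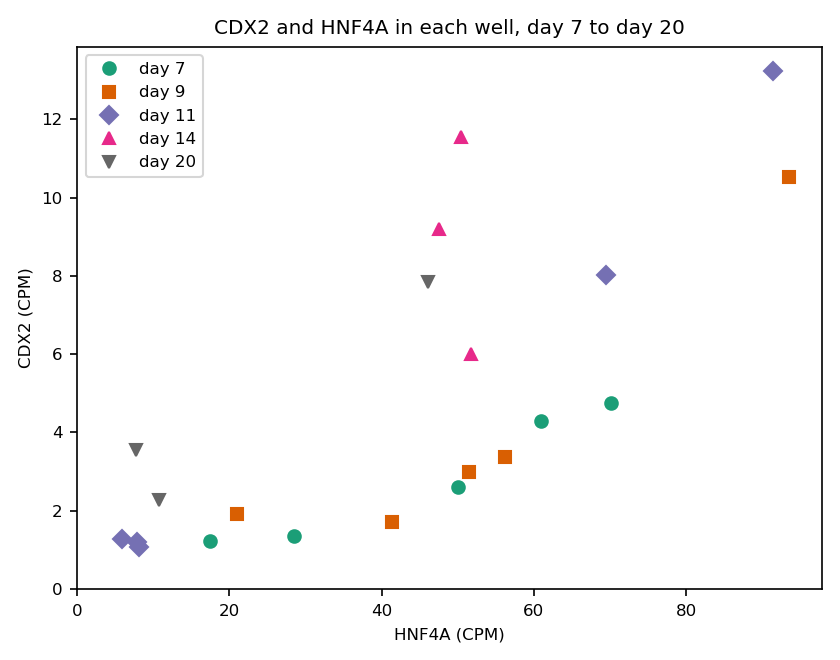
CDX2 (vertical axis, CPM) against HNF4A (horizontal axis, CPM) in each well of days 7, 9, 11, 14 and 20. Wells 1 and 2 of day 11 lie at the upper right, and the other 3 wells of that day lie at the lower left, at 1.07 to 1.28 CPM of CDX2.

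The lowest TBXT counts were in sequencing lanes 4 and 5. Outside days 1 and 3, all 22 libraries in lanes 1 to 3, the lanes that also held the day 1 and day 3 libraries, had 4 to 14 TBXT counts. The 16 libraries in lanes 4 and 5 had 0 to 6 counts, 8 of them 0 and 13 of them 3 or fewer. Lane and day are partly confounded, since all 3 wells of day 90 and 3 of the 5 wells of day 9 were in lanes 4 and 5, and 6 of the 8 libraries at 0 are of these days. At days 5 and 7, which were in lanes of both kinds, TBXT had 4 to 12 counts in the 6 libraries of lanes 1 to 3 and 0 to 4 in the 4 of lanes 4 and 5. In pluripotent and day 0 cells the TBXT range was 0.311 to 0.482 CPM in lanes 1 to 3 and 0.0613 to 0.200 CPM in lanes 4 and 5, with 3 libraries in each. EOMES was divided in the same way in these cells, at 0.281 to 0.638 CPM in lanes 1 to 3 and 0.0365 to 0.166 CPM in lanes 4 and 5, and so were EVX1 and CDX2, at 5 counts or fewer per library. Over all days but 1 and 3, MIXL1 had 7 to 73 counts in lanes 1 to 3 and 8 to 103 in lanes 4 and 5, and TBX6 had 2 to 86 and 4 to 70, so neither was divided this way. The part of the lane in these low counts was not tested, and with lane in the fit TBXT was called in the same 4 comparisons.

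**Figure D5:**
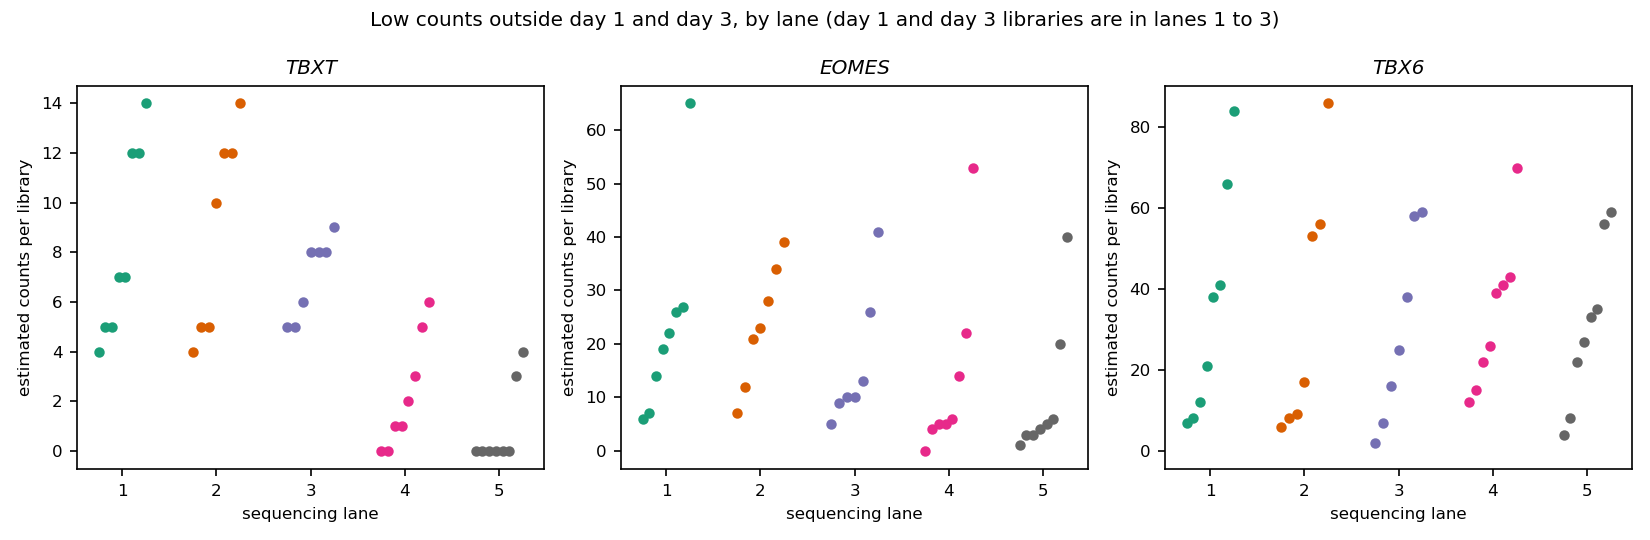
Estimated counts of TBXT, EOMES and TBX6 in each library outside days 1 and 3, by sequencing lane, sorted within the lane. Every TBXT point of lanes 1 to 3 lies at 4 counts or more, and 8 of the 16 points of lanes 4 and 5 lie at 0, while the TBX6 points of all lanes share 1 range.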

How the data were processed

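Total RNA from 44 wells was sequenced as 150-base read pairs from stranded libraries, 10 libraries per lane, per the labels' protocols. Per the submitters' processing notes, cutadapt, STAR 2.5.2b and RSEM 1.2.31 were used with hg38. The authors deposited estimated counts per Ensembl gene, of which 93.8% are whole numbers, and these were rounded before testing. The authors also deposited TPM values, used to compare genes with each other and in the limma alternatives. An RNA integrity score and a sequencing lane for each library come from a table the authors deposited. GENCODE 29 held 56769 of the 60499 identifiers, and all count columns matched a sample.

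edgeR 4.0.16 in R 4.3.3 fitted 1 quasi-likelihood model to all libraries, with TMM scaling and its default filter on low counts, and tested 7 comparisons of groups. SE is the absolute log2 fold change divided by the square root of F. Every adjusted p in the text is edgeR's unless another tool is named. Alternatives used DESeq2 1.42.0 and limma 3.58.1, and 22 further fits each left out 1 library. The floor is 3 counts per library, or over a group where a fold is given against it. Floors and 95% counting intervals cover counting error only. Scripts were tested on simulated data.

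The 10 genes and all gene lists were chosen with earlier results of these data known. All 10 are named. From the other lists the text names up to 2 called genes per direction with the highest absolute log2 fold change, the 3 genes most alike each of the 10, and the genes said to be chosen after their values were seen. Of the genes this rule picks, 2 are not reported here. Outliers were sought in the groups of 5 wells.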

Additional observations from a re-analysis of the deposited data

Results flagged for a closer look

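In the groups of 5 wells, the highest and lowest well of each gene was compared with the nearest other well, as a share of the group's whole range, against Dixon's 95% critical value. Of 38 gene and group sets 4 held a well beyond it, and chance flags about 1 in 20. CDX2 at day 9 stood at 10.5 CPM in well 2, against 1.72 to 3.38 CPM in the other wells. LHX1 at day 9 stood at 3.58 CPM in well 4, against 0.341 to 1.11 CPM. MSGN1 stood at 0.0399 CPM in day 5 well 2 and at 0.0477 CPM in day 11 well 1, each from 1 count where the other wells had 0.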

How the results depend on the processing

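Of 43 pairs of a gene and a comparison called by edgeR, 30 were called under every alternative, and none changed direction. For day 0 against pluripotent, DESeq2 called 1 gene (TBX6) and the fit of only these groups 2 (TBX6 and MIXL1). For day 5 against day 0, limma on log2(TPM + 1) called 0 with and without a filter. For day 7 against day 5, DESeq2 called 1 gene (CDX1), no filter 1 (EVX1), a filter of 1 CPM in 3 libraries 1 (CDX1) and only the groups compared 2 (EVX1 and EOMES). That last fit had 7 of the 10 genes left to test and called 991 of all 17475 genes tested. Leaving out 1 library gave 0 to 0 genes called for day 0 against pluripotent. It gave 8 to 8 for day 1 and 10 to 10 for day 3 when set against day 0, and 4 to 6 for day 5. Between successive days it gave 8 to 9 from day 1 to day 3, 8 to 9 from day 3 to day 5 and 0 to 1 from day 5 to day 7.

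The main fit did not pair wells by replicate number. In no comparison did every same-numbered pair correlate above 0.1, but 3 of 4 did for day 7 against day 5 (r from -0.076 to 0.400). Every well correlated best with its own number only in day 5 against day 0. With so few wells per group, these correlations cannot decide whether the numbers pair the wells. With the replicate number as a block, 8 genes were called for day 5 against day 3 (GSC and CDX2 lost) and 1 for day 7 against day 5 (EOMES). DESeq2 also lost EOMES in day 3 against day 1 (adjusted p 0.069) and MSGN1 in day 3 against day 0 (adjusted p 0.066). Relative to CPM, the TPM scale moved the median of 5055 genes by 0.18 log2 from day 0 to day 1, 0.11 to day 3, -0.34 to day 5 and -0.26 to day 7. Depth limits the day 0 and day 5 levels of MSGN1 and the day 0 levels of EVX1, CDX1, CDX2 and GSC, which rest on 9 counts or fewer per gene.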

Other observations

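In day 20 well 2, the shallowest library of all (6937136 counts), 8 of the 9 streak factors with any count in the group had their highest CPM, beside 56.9% of all genes between 0.1 and 10 CPM on average. In day 30 well 10 (11715812 counts) it was 8 of 9, beside 51.3%, and in day 14 well 2 (8679308 counts) 6 of 10, beside 47.2%. In day 90 well 4, the shallowest of its day with 18450560 counts, it was 2 of 7, beside 37.5%. The 1.92 CPM of TBXT, 3.83 CPM of EOMES and 6.02 CPM of MIXL1 at day 20 all come from day 20 well 2. RNA integrity was the lowest of its day in day 14 well 2 (7.4), day 20 well 2 (8) and day 30 well 10 (7.4). In day 90 well 4 it was the highest of its day (9.5). These are descriptions of single libraries, and the part of depth or RNA integrity was not tested.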
